A study of Mus musculus with 20 samples.

Results

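The size of the transcriptional response to fluid shear stress was compared between 2 sets of paired cultures of DC2 cells. DC2 is an immortalized line derived from principal cells of the distal caput of the mouse epididymis, the duct in which sperm mature, and all libraries came from this line. The 6 flow libraries were made from cells in microfluidic channels held for 3 h at 1 dyn/cm2 of shear stress, and the 6 static libraries from cells kept in such channels without flow. According to the study's methods, cells of both conditions had first been held in low-serum medium, which stops growth and lets primary cilia form. The remaining libraries of the series, made after siRNA transfection, were not used here, so that 12 of 20 libraries entered.

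Each flow library was paired with the static library of the same sample number, and the response of a gene in a pair was the change log2(flow TPM + 1) minus log2(static TPM + 1). TPM is a level corrected for transcript length and scaled to the same total in every library. Pairs 1 to 3 are called block A and pairs 4 to 6 block B, and the difference between blocks was the mean change of block B minus that of block A. No label names these blocks: the split follows the sample numbers, it was chosen with earlier results of these data known, and the sources used here do not give what set the cultures of the blocks apart. The labels also do not say which libraries came from separate cultures. The study's methods speak of 6 experimental replicates in each condition, and the series' design text speaks of 4 experiments. The p-values therefore measure the spread between these pairs, which may be technical. The title of flow library 6 calls it flow and its treatment field calls it static. It was counted as flow.

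Cells under shear stress are known to switch on immediate-early genes within minutes, among them the AP-1 (Fos and Jun) and EGR transcription factors, whose transcripts are short-lived. Feedback genes follow: DUSP phosphatases switch off MAP kinases, and ZFP36 proteins bind AU-rich elements and shorten the life of cytokine and early-gene transcripts. NF-kB is held in the cytoplasm by IkB-alpha, the product of Nfkbia, and on release it drives chemokine genes and Nfkbia itself. YAP/TAZ and SRF are co-activators and a transcription factor that read out tension on the cytoskeleton, and Ccn1 and Ccn2 are their usual reporters.

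The libraries were alike in breadth, with 15543 to 16562 of 21509 protein-coding genes above 0 TPM, and no pair of them held identical values. TPM keep no read totals, so the depth behind each value is unknown. Transcripts of ribosomal proteins made up 19.3 to 20.6% of TPM in flow libraries of block A, 15.9 to 19.5% in those of block B, 19.3 to 20.5% in static libraries of block A and 17.2 to 19.4% in those of block B. The 10 highest genes held 8.41 to 9.46% of TPM in flow libraries of block A and 7.12 to 8.15% in those of block B. Median-of-ratios scaling factors were 0.9 to 0.988 in static libraries of block A and 1.02 to 1.11 in those of block B. In the other condition both measures overlapped between blocks, and their part in the results was not tested. The 12 listed markers of epididymal principal cells stayed at or below 0.262 TPM in the 12 libraries, and Lcn8, Lcn9, Crisp1, Spint4 and Defb41 were at 0 in each of them, so that these markers do not identify the cells as principal cells. Of 8 epithelial markers, 3 (Krt18, Krt19 and Cldn4) passed the filter and Epcam was at 0 in 6 libraries. The sum of the 8 was 67.2 to 72.2 TPM in static libraries of block A, 108 to 139 in those of block B, 71.5 to 83.7 in flow libraries of block A and 133 to 293 in those of block B. It was higher in block B in both conditions, and its part in the results was not tested. Of 7 macrophage and leukocyte markers, Cd68, a lysosomal protein, passed the filter, at 10.1 to 64.0 TPM, while Adgre1 and Cd3e were at 0 in all 12 libraries and Ptprc, Csf1r, Lyz2 and Cd79a did not exceed 0.0878, 1.34, 1.10 and 0.329 TPM. The sum of the 7 was 13.9 to 16.1 TPM in static libraries of block A, 14.8 to 66.4 in those of block B, 10.6 to 16.6 in flow libraries of block A and 15.6 to 40.9 in those of block B. It reached higher values in block B, with overlap between blocks in both conditions, and its part in the results was not tested.

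Genes whose TPM averaged 1 or more over the 12 libraries numbered 11388. Of these, 18 (0.158%) had a larger response in block B than in block A, at an adjusted p under 0.05 and a ratio of more than 1.5-fold by limma with Benjamini-Hochberg adjustment. They were Cxcl1, Egr3, Fosb, Egr2, Atf3, Btg2, Arc, Zfp36, Dusp5, Nfkbia, Trib1, Tcim, Sgk1, Junb, Fosl1, Csrnp1, Phlda1 and Ier2. The ratio of the fold changes ran from 2.03 for Ier2 to 14.0 for Cxcl1, and the median difference was 1.88 on the log2 scale. In each of the 18 the 3 changes of block B lay above the 3 of block A, an arrangement found for 282 genes in all (2.48%). In limma, 0 genes had a significantly smaller response in block B, whereas at an unadjusted p under 0.05 there were 201 genes with a larger and 316 with a smaller one, and the median difference over all genes was -0.06. That median depended on the setting: it was 0.011 with median-of-ratios scaling and 0.0067 with array weights.

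Within the blocks, 18 genes (0.158%) were called higher under flow in block A and 133 (1.17%) in block B, with 0 and 15 lower (320 and 1437 genes at an unadjusted p under 0.05). Of the 18 genes with the larger response in block B, 18 were called higher in block B and 8 in block A. The 10 that were not called in block A were Cxcl1, Egr3, Egr2, Atf3, Btg2, Zfp36, Nfkbia, Trib1, Tcim and Fosl1. The number called in block A moved widely with the setting. Among fits that left out 1 pair it was lowest without pair 1 or 3 and highest without pair 2. A gene not called in block A is therefore not shown to be without a response there. Several settings ended the calls of the difference between blocks: limma called 0 genes without the pairing, 0 without the filter on low TPM and 0 without pair 3 (238, 901 and 634 at an unadjusted p under 0.05), 1 without pair 1 and 1 without the intensity trend, against 10 without pair 6, 7 higher and 1 lower without pair 5, 24 higher and 3 lower without pair 2, and 49 without pair 4. In all 13 refits, with another setting or without 1 pair, the difference of each of the 18 genes stayed above 0. For most refits this was fixed in advance. Leaving out 1 pair cannot turn the sign where the changes of the blocks do not overlap. Another filter, no pairing or no trend leaves the differences themselves unchanged.

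**Figure D1:**
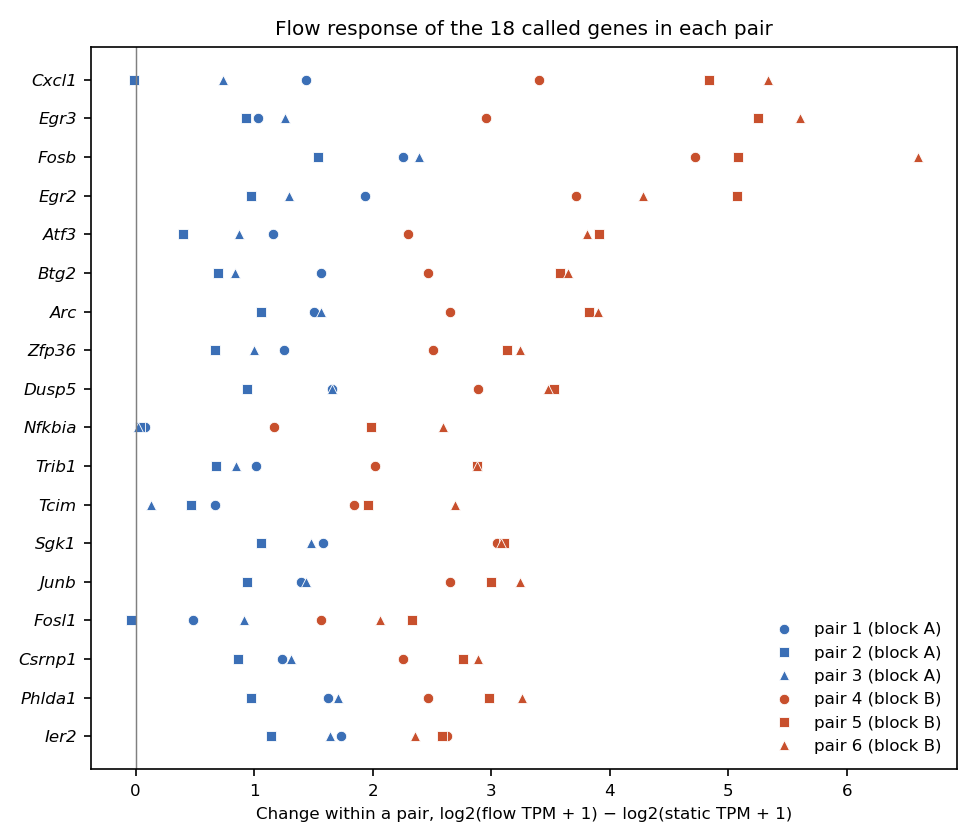
Change within each pair (x axis, log2(TPM + 1) units) for the 18 genes with a larger response in block B (y axis), with pairs of block A in blue and pairs of block B in orange. In every gene the 3 orange points lie to the right of the 3 blue points, and the gap is widest for Cxcl1, Egr3 and Fosb, with differences of 3.80, 3.53 and 3.40.

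Cxcl1, a chemokine that attracts neutrophils (ENSMUSG00000029380, chr5:90891241-90893115 on GRCm38), had the largest difference of the 18 genes. Its level in block A was 170.0, 109.7 and 145 TPM under flow and 62.1, 111 and 86.8 TPM in the paired static libraries. In block B it was 390.1, 1286 and 1903 TPM under flow against 36.0, 44.1 and 46.2 TPM without. The flow libraries of block B lay above those of block A and its static libraries below, with no overlap in either. The change was 0.72 ± 0.32 (log2, mean of 3 pairs ± limma standard error) in block A and 4.52 ± 0.32 in block B, 1.65-fold against 23.0-fold on the TPM + 1 scale. Here and below, the standard error rests on an estimate of spread that both blocks share and that limma moderates across genes. It is therefore the same for both blocks and does not show the spread of the 3 pairs of a block. The difference of 3.80 ± 0.46 had a 95% interval of 2.79 to 4.82 and a limma adjusted p of 0.013, and it was called in 8 of the 13 refits. In bulk RNA a change in the share of responding cells and a change in RNA per cell cannot be told apart.

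Nfkbia, which encodes the NF-kB inhibitor IkB-alpha (ENSMUSG00000021025, chr12:55489410-55492647), differed little between conditions in block A. Its level there was 40.7, 49.4 and 44.3 TPM under flow and 38.6, 48.2 and 43.6 TPM without. In block B it was 61.7, 122 and 165 TPM under flow and 26.9, 30.0 and 26.6 TPM without. As with Cxcl1, flow libraries of block B were the highest of the 12 and its static libraries the lowest. The change was 0.04 ± 0.20 in block A, with a limma adjusted p of 1, and 1.92 ± 0.20 in block B, with an adjusted p of 0.00043. The difference was 1.87 ± 0.28 (95% interval 1.26 to 2.49, limma adjusted p 0.0364).

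Of 12 measured cytokine and chemokine genes, 9 had a difference above 0 and 1, Cxcl1, passed the test, with a median difference of 1.17 against -0.06 over all genes. Over all genes tested, 34.1% had a difference above 0 and 0.158% passed. This list and those below were chosen with earlier results of these data known, so their counts are descriptions. The chemokine Ccl2, which attracts monocytes, stood at 349.6, 207 and 300.4 TPM under flow and 245, 275 and 264 TPM without flow in block A. In block B it stood at 262, 635 and 1194 TPM against 120.4, 129 and 143 TPM. Its static level was lower in each library of block B than in any of block A, while the flow levels overlapped, and the difference between changes of 2.06 ± 0.40 did not pass the test (limma adjusted p = 0.135). The differences of Csf2, a granulocyte and macrophage growth factor, and Lif, a cytokine of the IL-6 family, were 2.26 ± 0.67 and 1.66 ± 0.52, and their changes within block B spread from 1.49 to 4.97 and from 1.27 to 3.92. Of 12 NF-kB subunits and inhibitors, 8 had a difference above 0 and Nfkbia alone passed, with a median of 0.16. The other members of this list whose mean change over the 6 pairs was called, Tnfaip3 (A20, a deubiquitinating inhibitor of NF-kB) and Nfkbiz (an atypical nuclear inhibitor), had differences of 1.64 ± 0.40 and 1.62 ± 0.36 with limma adjusted p values of 0.389 and 0.278.

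**Figure D2:**
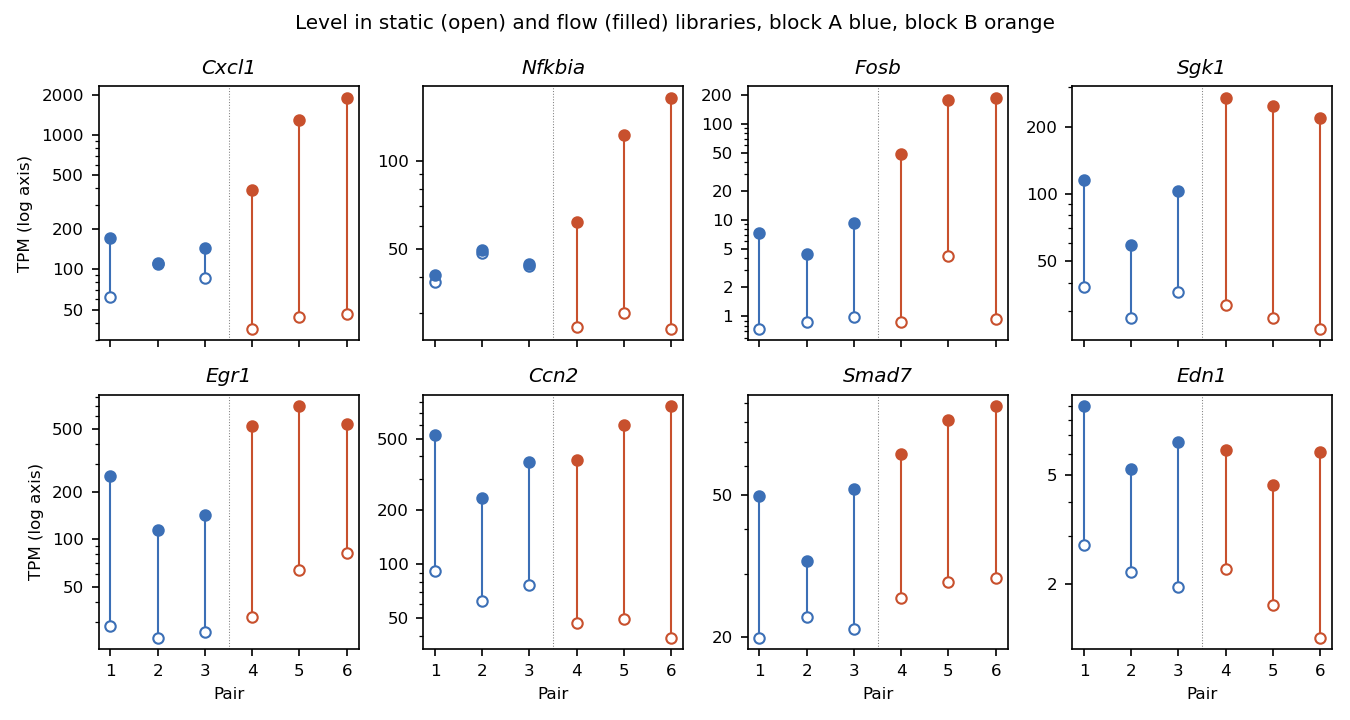
TPM on a log axis (y) in the static (open) and flow (filled) library of each pair (x), block A in blue and block B in orange, for 8 genes. For Cxcl1 and Nfkbia the lines of block B are longer at both ends, for Fosb and Sgk1 at the flow end, and for Edn1 the lines of the blocks are alike, with a difference of 0.04.

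All 8 AP-1 genes were measured and all 8 had a difference above 0 (34.1% of all genes). The test was passed by 4 (0.158% of all genes): Fosb, Fosl1, Junb and Atf3. The median change of the 8 genes was 0.75 in block A and 2.47 in block B. Fosb (ENSMUSG00000003545, chr7:19302696-19310051) stood at 7.32, 4.41 and 9.41 TPM under flow and 0.743, 0.866 and 0.980 TPM without in block A. In block B it stood at 48.3, 175 and 187 TPM against 0.876, 4.20 and 0.943 TPM. The lowest flow library of block B was above all flow libraries of block A, and 2 of the 3 static libraries of block B were within the range of block A. The change was 2.06 ± 0.30 in block A and 5.47 ± 0.30 in block B, called in both (limma adjusted p 0.0286 and 4.73e-06), and the difference was 3.40 ± 0.42 (95% interval 2.46 to 4.34, adjusted p 0.0138).

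Junb, a partner of the Fos proteins, was at 124, 91.2 and 122 TPM under flow and 46.5, 47.1 and 44.4 TPM without in block A, and at 280.2, 499 and 656 TPM against 43.7, 61.5 and 68.4 TPM in block B. Flow levels did not overlap between blocks, and its difference of 1.71 ± 0.17 had the second smallest adjusted p (limma, 0.00856). Atf3, a stress-induced repressor and activator that pairs with Jun proteins, had changes of 1.16, 0.40 and 0.87 in the pairs of block A and of 2.29, 3.91 and 3.81 in those of block B, a difference of 2.53 ± 0.37 (limma adjusted p 0.0351). For Fosl1 (Fra-1) the levels were 181, 102 and 187 TPM under flow and 129, 105 and 99.1 TPM without in block A, and 178, 249.8 and 355 TPM against 59.9, 48.8 and 84.3 TPM in block B. Here the flow libraries overlapped and the static libraries did not, with those of block B the lower, and the difference was 1.53 ± 0.24 (limma adjusted p 0.0473). Fos itself was at 3.27, 1.81 and 2.02 TPM under flow and 0.509, 0.336 and 0.956 TPM without in block A, and at 24.8, 54.4 and 22.4 TPM against 0.712, 4.68 and 3.51 TPM in block B. The flow levels of Fos did not overlap between blocks, and the difference between changes of 2.13 ± 0.36 did not pass (limma adjusted p = 0.0787).

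Of 11 EGR, NR4A and related early genes, 8 were measured. All 8 had a difference above 0 (34.1% of all genes), and Egr3, Egr2 and Arc passed the test (0.158% of all genes). The median change of the list was 0.92 in block A and 3.12 in block B. Egr3 (ENSMUSG00000033730, chr14:70077203-70082614), a zinc finger transcription factor, was at 1.24, 1.07 and 1.62 TPM under flow and 0.0975, 0.0857 and 0.0961 TPM without in block A, and at 7.85, 51.1 and 57.9 TPM against 0.138, 0.366 and 0.209 TPM in block B. All static libraries were below 0.4 TPM, so that its fold changes depend on the pseudocount. Outside the flow libraries of block B it averaged under 1 TPM. It thus entered the test only through the libraries in which it was high, and its call is a description. The difference was 3.53 ± 0.56 on the TPM + 1 scale (limma adjusted p 0.0473) and 3.61 with a pseudocount of 0.1, where it was not called (limma adjusted p 0.0758). Its relative Egr2 (ENSMUSG00000037868, chr10:67535475-67542188) was at 4.33, 2.04 and 3.42 TPM under flow and 0.395, 0.551 and 0.802 TPM without in block A, and at 17.2, 53.1 and 38.1 TPM against 0.385, 0.607 and 1.02 TPM in block B. Egr2 static levels overlapped between blocks and its flow levels did not, with a difference of 2.96 ± 0.35 (95% interval 2.18 to 3.74, limma adjusted p 0.013). Arc, best known as an activity-regulated gene of neurons, had changes of 1.51, 1.06 and 1.57 in block A and 2.65, 3.82 and 3.90 in block B, a difference of 2.08 ± 0.30 (limma adjusted p 0.0335).

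Egr1, the best known member of the family, had no called difference between blocks. It had the largest change of all genes called in block A, at 2.59 ± 0.22, and a change of 3.37 ± 0.22 in block B. Its levels were 252, 113 and 143 TPM under flow and 27.9, 23.7 and 25.7 TPM without in block A, and 525, 695 and 534 TPM against 32.1, 63.4 and 81.9 TPM in block B. Both the flow and the static libraries of block B were above those of block A, and the changes overlapped. The difference of 0.78 ± 0.31 (95% interval 0.10 to 1.46) did not pass the test (limma adjusted p = 1).

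Promoter sequence is shown for Cxcl1, Fosb and Egr2, the 3 genes with the largest differences that had an entry in the RefSeq promoter table (GRCm38.p6). Each run is the 250 bases before a RefSeq transcription start, 5' to 3' on the gene's strand, and capitals mark the matches to the motifs searched on both strands: TGACTCA or TGAGTCA (AP-1), TGACGTCA (CRE), GGAATG (TEAD), GCGGGGGCG or GCGTGGGCG (EGR) and GGGA, any base, TTTCC (kappaB, added after the values had been seen).
Cxcl1, chr5:90890995-90891244, plus strand: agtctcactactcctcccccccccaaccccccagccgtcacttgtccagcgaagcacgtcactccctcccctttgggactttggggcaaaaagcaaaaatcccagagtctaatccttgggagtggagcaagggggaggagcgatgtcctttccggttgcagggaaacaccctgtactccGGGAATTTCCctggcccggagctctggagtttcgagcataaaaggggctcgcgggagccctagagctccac
Fosb, chr7:19310046-19310295, minus strand: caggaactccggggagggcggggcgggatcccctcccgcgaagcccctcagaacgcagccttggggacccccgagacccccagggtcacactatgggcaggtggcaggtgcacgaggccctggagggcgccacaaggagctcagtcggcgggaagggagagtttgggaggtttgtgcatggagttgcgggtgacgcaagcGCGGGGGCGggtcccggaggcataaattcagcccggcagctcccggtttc
Egr2, chr10:67537316-67537565, plus strand: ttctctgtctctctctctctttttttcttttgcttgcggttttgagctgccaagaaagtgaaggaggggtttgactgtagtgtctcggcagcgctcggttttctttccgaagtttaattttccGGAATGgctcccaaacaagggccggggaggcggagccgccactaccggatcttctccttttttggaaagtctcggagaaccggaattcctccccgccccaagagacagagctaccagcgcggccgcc
The Cxcl1 window held a kappaB match whose first base was 71 bases before the start, the Fosb window an EGR match 50 bases before it, and the Egr2 window, 1 of 5 listed for that gene and chosen because it held a match, a TEAD match 127 bases before it. Among the 18 genes 11 had an entry, and of these Cxcl1 and Nfkbia had a kappaB match, a match held by 0.356% of all 32851 windows. Fosb and Zfp36 had an EGR match (3.06% of windows), Egr2, Sgk1 and Csrnp1 a TEAD match (12.6%), Csrnp1 an AP-1 match (4.46%) and Btg2 a CRE match (1.55%). Genes with several windows had more chances of a match, and a match is a description of the letters in the window only.

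Of 22 KLF, IER, ZFP36 and growth arrest genes, all measured, 20 had a difference above 0 (34.1% of all genes). The test was passed by 4 (0.158% of all genes): Btg2, Zfp36, Phlda1 and Ier2. Zfp36 (tristetraprolin), which promotes decay of AU-rich transcripts, was at 13.3, 8.65 and 10.6 TPM under flow and 4.99, 5.05 and 4.78 TPM without in block A, and at 36.3, 81.5 and 82.2 TPM against 5.56, 8.41 and 7.78 TPM in block B. Both levels were higher in block B without overlap, the flow level by 2.44 and the static level by 0.46 on the log2 scale, and the difference between changes was 1.99 ± 0.22 (limma adjusted p 0.013). Btg2, an antiproliferative gene tied to deadenylation, had changes of 1.56, 0.70 and 0.84 in block A and 2.47, 3.58 and 3.65 in block B. Its difference was 2.20 ± 0.31 (limma adjusted p 0.0335). Phlda1, a pleckstrin homology protein, and Ier2, an immediate-early nuclear protein, had the smallest differences of the 18 called genes, 1.47 ± 0.22 and 1.02 ± 0.16, and both were called in block A as well, with levels raised 2.70-fold and 2.84-fold on the TPM + 1 scale. The call of Ier2 was kept in 3 of the 13 refits.

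Of 17 feedback genes of the MAP kinase pathway 16 were measured. A difference above 0 was found for 12 (34.1% of all genes), and Dusp5, a nuclear phosphatase of ERK, passed (0.158% of all genes). Dusp5 was at 122, 60.9 and 105 TPM under flow and 37.9, 31.3 and 32.7 TPM without in block A, and at 172, 326 and 397 TPM against 22.5, 27.4 and 34.7 TPM in block B. Flow levels were higher in block B without overlap while static levels overlapped, and the change was 1.42 ± 0.16 in block A and 3.30 ± 0.16 in block B, a difference of 1.88 ± 0.22 (limma adjusted p 0.013). Dusp1, a phosphatase of several MAP kinases, and Errfi1 (Mig-6), an inhibitor of the EGF receptor, had differences of 1.36 ± 0.23 and 1.36 ± 0.23, each with a limma adjusted p of 0.0787. Dusp2, a phosphatase known from immune cells, had changes of 1.09, 0.67 and 0.82 in block A and 1.33, 3.02 and 4.02 in block B, a wide spread, and its difference of 1.93 ± 0.53 did not pass (limma adjusted p = 0.596).

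Sgk1, the serum- and glucocorticoid-regulated kinase (ENSMUSG00000019970, chr10:21882184-21999903), had the smallest adjusted p of the comparison. It was at 116, 59.2 and 103 TPM under flow and 38.1, 27.9 and 36.3 TPM without in block A, and at 269.8, 248 and 218 TPM against 31.7, 27.8 and 24.9 TPM in block B. The pairs of block B were close to each other, with changes of 3.05, 3.11 and 3.08, against 1.58, 1.06 and 1.48 in block A. The difference was 1.71 ± 0.14 (95% interval 1.39 to 2.02, limma adjusted p 0.00242). It kept its call in 10 of the 13 refits. On the list of 6 glucocorticoid response genes it was the only 1 of 5 measured to pass, and the median difference of that list was -0.07.

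Trib1, Tcim and Csrnp1 were on no list. Trib1, a pseudokinase of the Tribbles family, had changes of 1.02, 0.67 and 0.85 in block A and 2.02, 2.88 and 2.88 in block B, a difference of 1.74 ± 0.23 (limma adjusted p 0.0188). Tcim, a small regulatory protein, had changes of 0.67, 0.47 and 0.13 and 1.84, 1.96 and 2.69, and its static level in pair 5, 11.66 TPM, was above the 3.44 to 4.55 TPM of the other static libraries. Csrnp1, a nuclear protein rich in cysteine and serine, differed by 1.49 ± 0.18 (limma adjusted p 0.0134) and was the 1 called gene outside the number set for naming, so that it was named after its values had been seen.

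The difference between blocks could lie in the flow libraries or in the static ones, and levels were therefore compared between blocks within each condition, as a description. Over the 18 called genes the median of the flow level in block B minus that in block A was 2.11 on the log2 scale, from 0.73 to 3.92, and that of the static level was 0.12, from -0.99 to 0.77. Flow levels of block B lay wholly above those of block A in 17 of the 18, all but Fosl1. Static levels lay wholly below in 4 (Cxcl1, Nfkbia, Trib1 and Fosl1) and wholly above in 3 (Egr3, Arc and Zfp36). The static mean of block B minus that of block A was -0.99 for Cxcl1, -0.81 for Fosl1 and -0.62 for Nfkbia on the log2 scale, and for these genes the static libraries contributed to the size of the difference. These levels were compared across pairs, so that the pairing does not apply to them.

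The genes called for the mean change of the 6 pairs, 107 higher (0.94%) and 1 lower, were chosen by a contrast that is orthogonal to the difference between blocks, although a gene that responds strongly in block B alone can pass it. Of these 107 genes, 107 had a difference above 0, against 34.1% of all genes tested, and the median was 0.87 against -0.06. Most of the 107 passed through their change in block B, so their contrast with all genes, few of which responded, is a description. With median-of-ratios scaling the medians were 0.92 and 0.011, and with array weights 0.82 and 0.0067. The quartiles of the differences were 0.62 and 1.48. The median change was 0.62 in block A and 1.38 in block B, and 18 were called in block A and 105 in block B. The 95% interval of the difference lay above 0 in 92 and included 0 in 15. The 3 changes of block B lay above those of block A in 72 of the 107 (67.3%, against 2.48% of all genes).

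**Figure D3:**
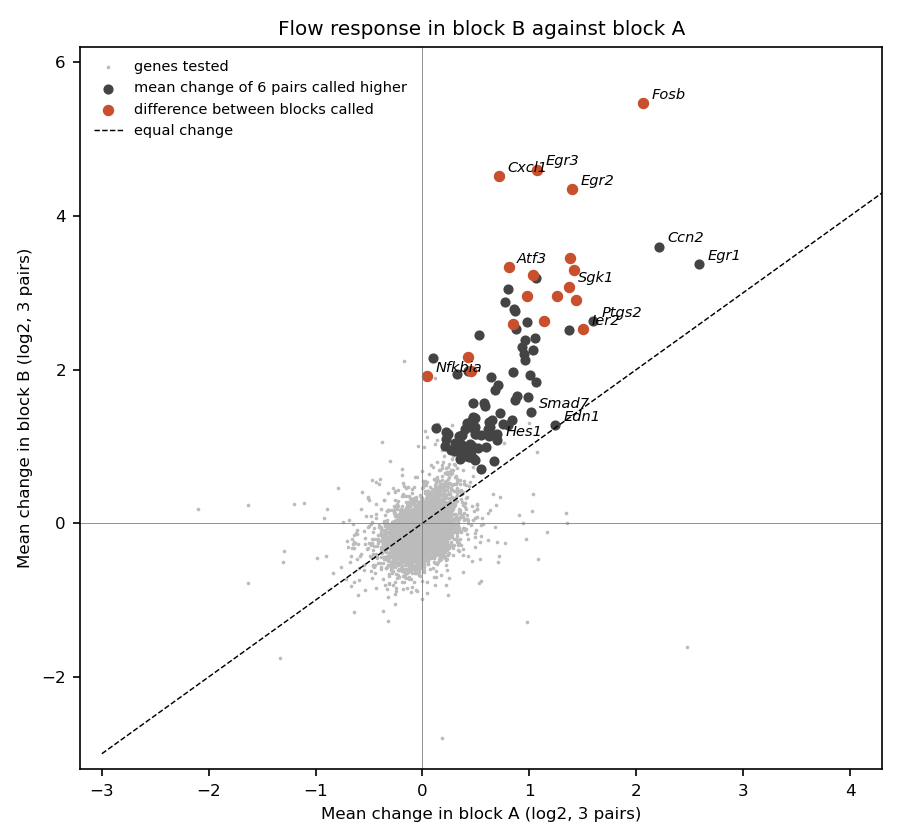
Mean change in block B (y axis) against mean change in block A (x axis), both in log2 units over 3 pairs, for 11388 genes tested, with the 107 genes called higher for the mean of the 6 pairs in dark grey and the 18 genes with a called difference in orange. All 107 marked genes lie above the dashed line of equal change, Edn1 close to it and Cxcl1 farthest from it.

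The pairs within a block were not alike. Over the 107 genes the median change was 0.94, 0.34 and 0.67 in pairs 1 to 3 and 1.08, 1.55 and 1.71 in pairs 4 to 6. Pair 2 had the smallest change of the 6 pairs for 95 of the 107, and it was the only pair in which some of the 107 were not above 0 (91 were). Among the 18 genes with a called difference, pair 2 was the smallest of block A in 16 and pair 4 the smallest of block B in 17. Without pair 2 the median change of the 107 genes in block A was 0.76 and the median difference 0.70, with 105 of 107 above 0. Without pair 6, which holds the library with conflicting labels, the median change in block B was 1.27 and the median difference 0.73, with 106 of 107 above 0. Across all 11388 genes, which are not independent replicates, the changes of pair 2 correlated with those of pairs 1 and 3 at r = -0.295 and -0.219, whereas pairs 1 and 3 correlated at 0.469 with each other and at 0.333 to 0.442 with the pairs of block B, which correlated among themselves at 0.487 to 0.648. Over the 107 genes, which were chosen for their change, pair 2 correlated with pairs 1 and 3 at 0.691 and 0.796, pairs 1 and 3 with each other at 0.848 and the pairs of block B at 0.755 to 0.902.

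Genes called in block A show which part of the response was also measurable there. Of the 18, 8 also had a called difference between blocks and 10 did not. The 10 with the largest change in block A were Egr1, Ccn2, Fosb, Ptgs2, Ier2, Phlda1, Dusp5, Arc, Ccn1 and Sgk1, with changes from 2.59 for Egr1 to 1.37 for Ccn1 and Sgk1. Ccn2 and Ccn1, matricellular proteins and usual reporters of YAP/TAZ, and Ptgs2 (COX-2), the inducible prostaglandin synthase, had differences with intervals above 0 that did not pass the adjustment. Ccn2 was at 523, 233 and 373 TPM under flow and 92.2, 62.1 and 76.7 TPM without in block A, and at 380.4, 601 and 761 TPM against 47.3, 49.4 and 39.1 TPM in block B. Its flow levels overlapped between blocks and its static levels were lower in block B without overlap, with a difference of 1.39 ± 0.27 (95% interval 0.79 to 1.98, limma adjusted p = 0.135). For Ccn1 the difference was 1.15 ± 0.22 and for Ptgs2 1.04 ± 0.30 (limma adjusted p = 0.135 and 0.636).

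The genes called for the mean change that differed least between blocks were Edn1, Inhba, Skil, Alkal1, Hes1, Epha2, Nabp1 and, among those lower under flow, Gm48552. Edn1, which encodes the vasoconstrictor endothelin 1 (ENSMUSG00000021367, chr13:42301476-42307990), was at 8.95, 5.25 and 6.59 TPM under flow and 2.78, 2.22 and 1.95 TPM without in block A, and at 6.17, 4.60 and 6.08 TPM against 2.27, 1.67 and 1.27 TPM in block B. Both levels and the changes overlapped between blocks, and the change was called in each, at 1.24 ± 0.16 in block A and 1.28 ± 0.16 in block B (limma adjusted p 0.0149 and 0.00165). The 95% interval of the difference, -0.46 to 0.54, lay below each of the 18 called differences. Edn1 was named for its small difference, so an interval around 0 followed from that choice and is a description. Inhba, the activin A subunit, and Skil (SnoN), a repressor of SMAD signalling, had differences of 0.15 (95% interval -0.43 to 0.73) and 0.17 (-0.25 to 0.58). For Hes1, a Notch target, the difference was 0.38 (0.07 to 0.69), with changes of 0.67, 0.75 and 0.69 in block A and 1.05, 1.03 and 1.17 in block B. Intervals for Alkal1, a ligand of ALK family receptors, the receptor tyrosine kinase Epha2, the single-stranded DNA binding protein Nabp1 and Gm48552 were -0.21 to 0.88, -0.11 to 0.88, -0.05 to 0.84 and -0.98 to 0.17, and each included 0.

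**Figure D4:**
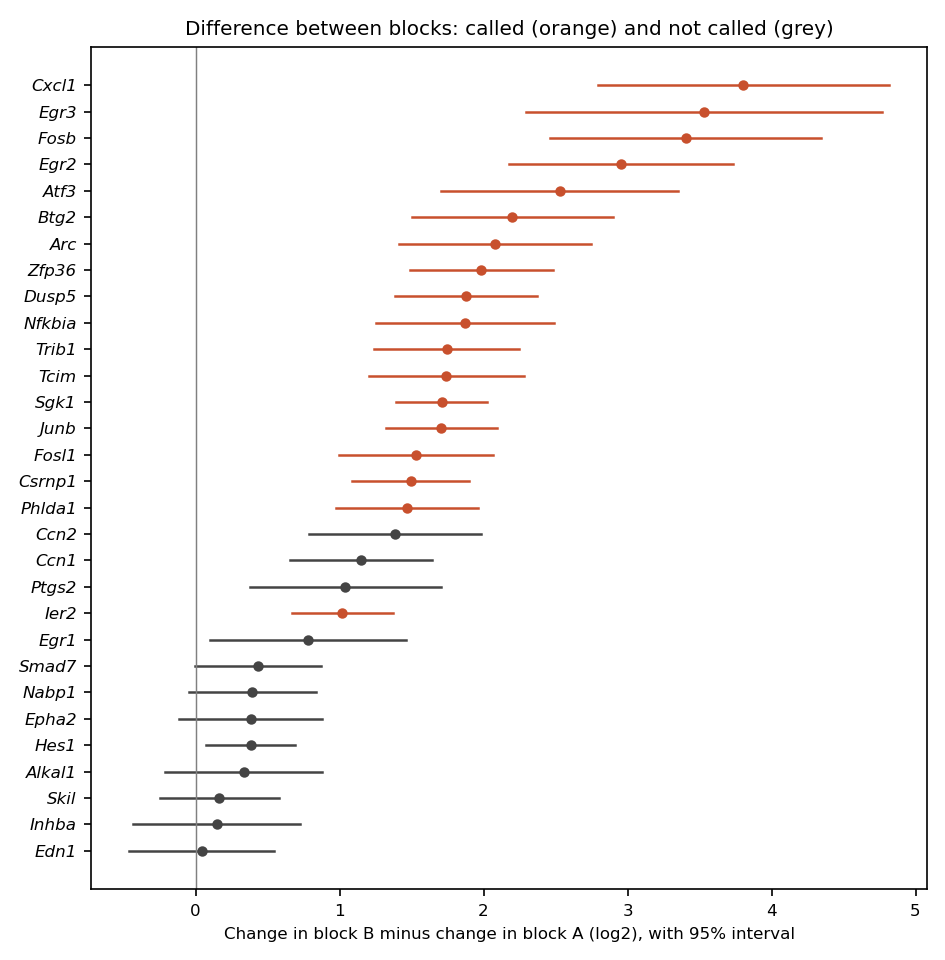
Change in block B minus change in block A (x axis, log2 units) with its 95% interval for the 18 genes with a called difference (orange) and for genes called in block A or for the mean change without a called difference (grey). The intervals of Edn1, Inhba and Skil include 0, and that of Ier2, the lowest called gene, runs from 0.67 to 1.37.

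Lists tied to the cytoskeleton and to TGF-beta had lower median differences than the early gene lists, given here as a description. Over all genes tested, 517 of 11388 had an unadjusted p under 0.05. Of 20 measured YAP/TAZ targets, 11 had a difference above 0 and 0 passed in limma (5 at an unadjusted p under 0.05), with a median of 0.04. Their median change was 0.14 in block A and 0.12 in block B. Of 17 measured SRF and MRTF targets, 14 had a difference above 0 and 0 passed (1 at an unadjusted p under 0.05), with a median of 0.13. Their median change was 0.14 in block A and 0.26 in block B. Such low changes in both blocks leave little room for a difference, so these medians say little on the members that responded. Within these lists, F3 (tissue factor), Ankrd1, a cardiac ankyrin repeat protein, and Srf itself had differences of 1.89 ± 0.36, 0.78 ± 0.26 and 0.83 ± 0.19, none of which passed (limma adjusted p = 0.13, 0.851 and 0.336). Of 15 measured genes of TGF-beta and BMP response, 13 had a difference above 0 and 0 passed (5 at an unadjusted p under 0.05), with a median of 0.21. Among them were the matrix protein Thbs1 at 0.93 ± 0.26, the BMP target Id1 at 0.74 ± 0.18 and the inhibitory SMAD Smad7 at 0.43 ± 0.20, the last with an interval of -0.01 to 0.87.

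Of 8 measured genes of plasminogen and matrix proteolysis, 8 had a difference above 0 and 0 passed (5 at an unadjusted p under 0.05), with a median of 0.73. Adamts1, a matrix protease, and Plaur, the urokinase receptor, had differences of 1.27 ± 0.31 and 0.91 ± 0.19. The EGF receptor list had 3 of 8 measured genes above 0 and 0 called (2 at an unadjusted p under 0.05), with a median of -0.07, and its ligands Hbegf and Ereg stood at 1.26 ± 0.25 and 1.09 ± 0.24. The endothelin and prostaglandin list had 4 of 8 above 0 and 0 called (2 at an unadjusted p under 0.05), with Ptger4, a prostaglandin E2 receptor, at 1.92 ± 0.37. The Notch list had 2 of 6 above 0 and the circadian clock list 7 of 15, each with 0 called (1 and 2 at an unadjusted p under 0.05), and the clock repressor Bhlhe40 stood at 0.60 ± 0.23.

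**Figure D5:**
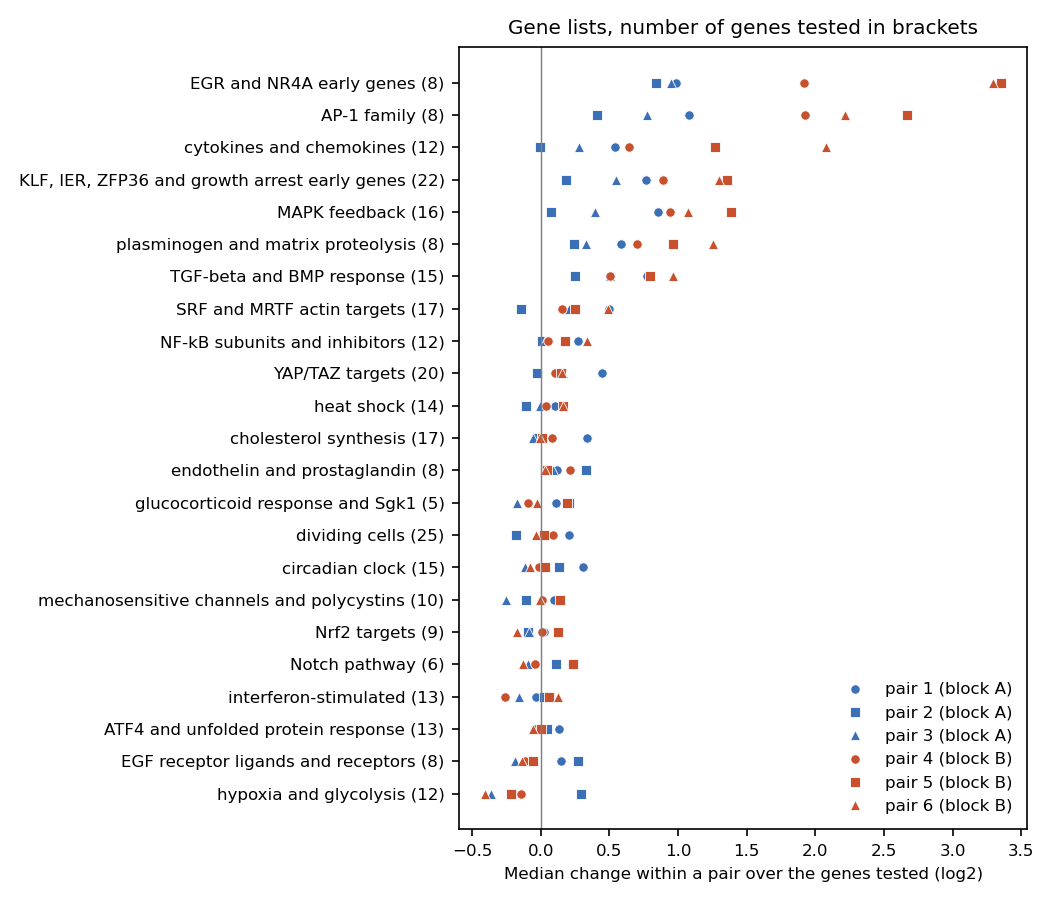
Median change within each pair (x axis, log2 units) over the measured genes of each list (y axis, number of genes in brackets), block A in blue and block B in orange. The points of the blocks lie apart for the AP-1 list, with medians of 0.41 to 1.08 in block A and 1.93 to 2.66 in block B, and close to 0 and intermingled for heat shock, cell division and cholesterol synthesis.

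Lists of other stress and growth programmes had 0 called genes each. Over all 11388 genes, 517 had an unadjusted p under 0.05, 34.1% had a difference above 0 and the median was -0.06. These values hold for the main fit, as the median was 0.011 with median-of-ratios scaling and 0.0067 with array weights. In the lists the number of genes at an unadjusted p under 0.05 was 1 of 14 for heat shock, 0 of 13 for ATF4 and the unfolded protein response, 2 of 9 for Nrf2 targets, 1 of 17 for cholesterol synthesis, 0 of 12 for hypoxia and glycolysis, 1 of 13 for interferon-stimulated genes, 0 of 25 for dividing cells and 0 of 10 for mechanosensitive channels and polycystins. Their median differences ran from -0.14 for hypoxia and glycolysis, with 1 of 12 genes above 0, to 0.09 for heat shock, with 11 of 14 above 0.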

How the data were processed

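Gene expression was taken from the deposited table of the flow experiment, in which the authors give TPM for 21509 protein-coding genes in 12 libraries. According to the study's methods and the submitters' processing notes, the authors aligned reads from directional poly(A) libraries to the Ensembl mouse transcriptome with kallisto 0.46.2 and used tximport to obtain gene values. The methods name Trimmomatic for trimming and the notes name fastp 0.20.0. The TPM sum to 1000000 in each library, hold no counts and leave the depth, and with it the counting error, unknown. The table of the siRNA experiment was not analysed here.

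Changes of log2(TPM + 1) within pairs were fitted with limma 3.58.1 in R 4.3.3 (block means, contrasts, eBayes with trend, 4 residual degrees of freedom) over genes that averaged 1 TPM or more, and p-values were adjusted with Benjamini-Hochberg over all 11388 genes. Genes were called at an adjusted p under 0.05 and over 1.5-fold. Fold changes on this scale understate those of genes with low TPM, and a difference between 2 such changes can be under- or overstated. An exact permutation test of 3 against 3 pairs cannot go below p = 0.1 and was not run. The fit was also run on simulated data with a known difference between blocks, as a check of the code only. Same numbers pair the libraries. Taken from the mean of each condition, the deviations of paired libraries correlated at 0.294, 0.463, 0.425, 0.468, 0.662 and 0.600 for pairs 1 to 6. These values include any shift between blocks that both libraries of a pair share. Taken from the mean of each condition within a block, they were 0.105, 0.322 and 0.0973 in block A and 0.525, 0.610 and 0.547 in block B. Libraries of unlike number were not compared in this way.

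The blocks, the 23 gene lists, the 9 marker lists and the tests were chosen with earlier results of these data known. Named were up to 15 genes with the largest called difference, up to 4 per list with the largest called mean change, the 8 genes called for the mean change with the smallest difference, and the 10 with the largest change called in block A. Of the markers, 0 of 12 principal cell, 0 of 6 clear cell, 0 of 5 endothelial, 0 of 5 erythroid, 3 of 8 epithelial, 1 of 5 basal cell, 2 of 7 fibroblast, 3 of 5 smooth muscle and 1 of 7 leukocyte genes passed the filter, and 0 of them had a called difference. Alternatives covered the filter, the pseudocount (0.1), median-of-ratios scaling, the pairing, array weights, the trend, the fold threshold and each pair left out. Leaving out pair 6 also covers the conflicting label of flow library 6. Positions are from GENCODE M21 on GRCm38, older than the authors' annotation, and 78 genes had no symbol. One gene taken by the naming rule is not reported here. Tables and figures were made with Python 3.11.15, pandas 2.3.3, numpy 2.4.6 and matplotlib 3.10.9.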

Additional observations from a re-analysis of the deposited data

Results flagged for a closer look

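The difference between the changes of block B and block A passed its test for 18 genes, each with a larger response in block B. On the log2 scale it was 3.80 for Cxcl1, 3.53 for Egr3, 3.40 for Fosb, 2.96 for Egr2, 2.53 for Atf3, 2.20 for Btg2, 2.08 for Arc, 1.99 for Zfp36, 1.88 for Dusp5, 1.87 for Nfkbia and 1.74 for both Trib1 and Tcim. It was 1.71 for Sgk1 and Junb, 1.53 for Fosl1, 1.49 for Csrnp1, 1.47 for Phlda1 and 1.02 for Ier2.

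Among 67 groups of 6 values, 3 held a value far from the other 5, and chance gives about 1 in 20. The change of the DNA binding protein Nabp1 in pair 2 was 0.12, below the 0.79 to 1.17 of the other pairs. The change of the inhibitory SMAD Smad7 in pair 2 was 0.51, below the 1.27 to 1.56 of the other pairs. The number of genes above 0 TPM was 16300 in the highest of the 6 flow libraries.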

How the results depend on the processing

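The 18 differences kept their sign in all 13 refits, which for most of the refits was fixed in advance. Genes called with a larger or smaller response in block B numbered 0 and 0 without the filter on low TPM, 18 and 0 with a filter at 5 TPM, 15 and 0 with a pseudocount of 0.1, 8 and 0 with median-of-ratios scaling, 32 and 3 with array weights, and 1 and 0 without the intensity trend. Without the pairing (no replicate block) they numbered 0 and 0, with 238 at an unadjusted p under 0.05. Leaving out each pair in turn gave 0 (without pair 3) to 49 (without pair 4) and 0 to 3. Of the 18 genes, 18 were shared by the calls with array weights and without pair 2, and 17 without pair 4.

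For block A, the genes called higher and lower numbered 45 and 15 with array weights, 0 and 0 without the filter, 10 and 0 without the trend, and 3 and 0 without the pairing, and 2 to 86 and 0 to 80 leaving out pairs. For block B they numbered 157 and 64 with array weights, 48 and 1 without the filter, 139 and 5 with median-of-ratios scaling, and 90 and 2 without the pairing, and 91 to 157 and 2 to 69 leaving out pairs. For the mean change they numbered 121 and 43 with array weights, 43 and 0 without the filter, 105 and 0 with a filter at 5 TPM, 104 and 0 with median-of-ratios scaling, 71 and 0 without the pairing, 108 and 3 with a pseudocount of 0.1, and 130 and 5 without the fold threshold, and 69 to 133 and 0 to 69 leaving out pairs. The lowest numbers for block A came without pair 1 or 3, the highest ones without pair 2, and the highest numbers of lower calls in block B and for the mean also came without pair 2.

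The difference of Edn1 was -0.087 with array weights and -0.14 to 0.15 leaving out pairs, and that of Inhba -0.12 to 0.41 leaving out pairs. Other genes taken by the naming rule kept the sign of their difference, and of the 37 without a call 31 of 516 values passed the threshold. The causes were not tested. With 3 pairs a block and an unknown depth, a gene without a called difference is not shown to respond alike in both blocks, and the sources used here give only the sample numbers to set the blocks apart.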

Other observations

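In block B, 15 genes were called lower under flow by limma, and in block A 0 (114 at an unadjusted p under 0.05). The 3 described here were named after their values had been seen. Zfp950, a zinc finger protein, had the smallest adjusted p of the 15, with changes of -0.88, -0.76 and -1.01 in block B and -0.24, -0.31 and -0.18 in block A. Its mean change in block B was -0.88 ± 0.10 (limma adjusted p 0.00115), while the difference between blocks was -0.64 ± 0.15 and did not pass the test (adjusted p = 0.324). Tnnc1, the slow and cardiac form of troponin C, had changes of -0.77, -0.79 and -0.85 in block B and of 0.0037, 0.45 and 0.20 in block A. Npff, the precursor of neuropeptide FF, had changes of -0.69, -0.57 and -0.66 and 0.32, 0.17 and 0.67. For both the changes of the blocks were of opposite sign without overlap, and the limma adjusted p of the difference was 0.0809. The number of genes called lower in block B was 69 without pair 2 and 2 without pair 6. The 0 of block A also held for the main fit only, since genes were called lower there with array weights and without pair 2.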
